A study of Arabidopsis thaliana with 6 samples.

Results

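Expansins and xyloglucan endotransglucosylase/hydrolases (XTHs) are the main protein families that loosen and rebuild the primary wall of growing plant cells, and 55 of their genes were followed here among 26185 loci with a read in dark-grown seedlings of Arabidopsis thaliana. The 55 genes were taken by locus from the named families: 17 alpha-expansins (EXPA), 5 beta-expansins (EXPB), and XTH1 to XTH33, which fall into 11 genes of class I, 15 of class II and 7 of class III. EXPA7 and EXPA18, which are root hair genes, were left out of the alpha-expansins. Messenger RNA had been sequenced from etiolated seedlings grown for 3 days in darkness at 22 °C, in 3 groups of 2 biological repeats. wei8tar2_MS is a Col-0 line with the genotype wei8-/- tar2+/- on MS, a mineral medium, and the labels do not say whether the seedlings pooled from it all had that genotype. Col_Kyn is wild-type Col-0 on MS with kynurenine, labelled as 25 mM. The unit of that dose could not be checked here. Col_MS is wild-type Col-0 on MS with no addition. WEI8 is another name of TAA1, which with its relatives TAR1 and TAR2 turns tryptophan into indole-3-pyruvic acid, the precursor of most of the auxin indole-3-acetic acid, and L-kynurenine is known as an inhibitor of these enzymes. The series title gives seedlings deficient in that route as the subject.

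Expansins are small wall proteins that let cellulose and xyloglucan slip past each other at acid pH, without cutting either. XTHs act on xyloglucan, the main hemicellulose that ties cellulose fibres in the walls of dicots: most of them cut a chain and join the cut end to another chain, while XTH31 and XTH32 belong to the branch of class III that hydrolyses it. Auxin is known to acidify the wall through plasma membrane proton pumps, which activates expansins, and to change the transcript levels of several members of both families. In a seedling kept in the dark the hypocotyl lengthens by cell expansion, and both families are active there and in the growing root.

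The libraries held 18138087 to 31807206 uniquely mapped reads in the 21326 genes tested, and 51 of the 55 genes had at least 1 read. TAA1 stood at 7.89 and 8.36 CPM (reads scaled to a common library total) in wei8tar2_MS, 38.4 and 41.5 CPM in Col_Kyn and 37.8 and 38.7 CPM in Col_MS, and TAR2 at 2.90 and 2.01 CPM in wei8tar2_MS, 7.08 and 6.29 CPM in Col_Kyn and 10.1 and 8.11 CPM in Col_MS. Both fell in wei8tar2_MS against Col_MS (edgeR quasi-likelihood test, Benjamini-Hochberg adjusted p = 0.000562 and 0.0301), and TAR1 had no read. PORA, a gene of dark-grown seedlings, stood at 1097 to 1408 CPM in all 6 libraries. ASN1, induced by darkness, rose in wei8tar2_MS against Col_MS (edgeR adjusted p = 0.0360), at 199 and 191 CPM in wei8tar2_MS, 119 and 187 CPM in Col_Kyn and 50.1 and 65.7 CPM in Col_MS, and no other gene of the lists for dark-grown and light-grown tissue, seed reserves, root hairs and the root tip was called in any comparison. Several of these lists varied between libraries without a call. The 7 seed reserve markers summed to 42.8 and 25.7 CPM in wei8tar2_MS, 30.5 and 3.03 CPM in Col_Kyn and 81.2 and 19.9 CPM in Col_MS, with median log2 fold changes against Col_MS of -0.64 in wei8tar2_MS and -2.09 in Col_Kyn, and EM1 among them had no read in Col_Kyn. The 4 light-grown markers summed to 3872 and 3873 CPM in wei8tar2_MS, 3024 and 4838 CPM in Col_Kyn and 3792 and 4078 CPM in Col_MS, nearly all of it RBCS1A, while LHCB1.4 had 14.6 and 15.1 CPM in wei8tar2_MS, 1.51 and 18.5 CPM in Col_Kyn and 2.44 and 3.79 CPM in Col_MS. The part of seed and light-grown content in the wall gene values was not tested. The repeats differed most in Col_MS and Col_Kyn. Among the 46 members tested, 1 differed by more than 1.5 times between the repeats of wei8tar2_MS, 12 between those of Col_Kyn and 11 between those of Col_MS. The 11 leave out EXPA17, which had 0 and 0.913 CPM in Col_MS and so no ratio between its repeats.

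The called member was XTH9 (AT4G03210, TAIR10.1 chr4:1415617-1417444), a class I gene known for its expression in young shoot tissue, which fell in wei8tar2_MS. The 250 bases before its annotated start, at chr4:1415367-1415616 on the plus strand, are shown first because XTH9 carries the called change. EXPA5 follows because it alone among the 55 genes held the auxin response element TGTCTC more than once in that window, at 149 and 94 bases before the start (chr3:11013452-11013701, minus strand). The other windows belong to the tandem pairs XTH12 (chr5:23301690-23301939) and XTH13 (chr5:23304096-23304345), and XTH18 (chr4:14827212-14827461) and XTH19 (chr4:14830225-14830474), all on the minus strand, whose coding sequences are near copies. The sequences are from RefSeq on TAIR10.1 and run 5′ to 3′ toward the gene, and capitals mark auxin response elements or a G-box on either strand, whose letters are given after the sequences.
XTH9: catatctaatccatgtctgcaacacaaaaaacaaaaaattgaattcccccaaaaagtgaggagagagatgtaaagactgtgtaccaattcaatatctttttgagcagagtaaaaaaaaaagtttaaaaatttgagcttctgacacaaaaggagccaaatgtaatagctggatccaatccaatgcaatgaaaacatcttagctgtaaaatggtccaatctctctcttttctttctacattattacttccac
EXPA5: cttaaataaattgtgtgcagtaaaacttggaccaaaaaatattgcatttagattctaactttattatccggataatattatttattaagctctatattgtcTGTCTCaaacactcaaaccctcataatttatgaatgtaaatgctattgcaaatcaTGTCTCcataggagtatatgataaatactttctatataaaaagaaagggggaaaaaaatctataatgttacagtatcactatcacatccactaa
XTH12: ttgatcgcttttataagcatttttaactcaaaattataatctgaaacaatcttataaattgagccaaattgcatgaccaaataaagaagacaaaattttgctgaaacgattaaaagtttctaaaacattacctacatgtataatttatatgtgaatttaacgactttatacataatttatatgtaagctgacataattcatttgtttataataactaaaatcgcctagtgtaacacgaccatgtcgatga
XTH13: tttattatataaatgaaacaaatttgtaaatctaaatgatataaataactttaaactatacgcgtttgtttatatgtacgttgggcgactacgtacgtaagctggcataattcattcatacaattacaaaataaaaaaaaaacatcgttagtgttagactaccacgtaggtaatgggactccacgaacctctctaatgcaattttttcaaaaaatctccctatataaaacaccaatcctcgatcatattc
XTH18: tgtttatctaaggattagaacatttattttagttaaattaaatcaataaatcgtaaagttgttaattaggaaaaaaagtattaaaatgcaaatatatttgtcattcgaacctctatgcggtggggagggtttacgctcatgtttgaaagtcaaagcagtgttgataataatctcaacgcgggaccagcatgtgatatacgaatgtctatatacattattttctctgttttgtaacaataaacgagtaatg
XTH19: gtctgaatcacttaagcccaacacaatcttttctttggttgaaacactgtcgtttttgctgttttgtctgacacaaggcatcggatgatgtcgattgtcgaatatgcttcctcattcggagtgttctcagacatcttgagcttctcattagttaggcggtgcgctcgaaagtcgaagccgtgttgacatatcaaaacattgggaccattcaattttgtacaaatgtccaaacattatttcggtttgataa

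All 55 members and 27443 RefSeq genes in all were searched for these motifs in the same window. TGTCTC, which on the other strand reads as GAGACA, was in 5 members, or 9.09%, and in 10.9% of all windows. Besides EXPA5, the members that held it were EXPA6, EXPA10, XTH3 and XTH6. TGTCGG, which on the other strand reads as CCGACA and which auxin response factors bind with higher affinity, was in EXPA12, EXPB3 and XTH20, or 5.45% of members, and in 4.16% of all windows. The G-box CACGTG, which reads the same on both strands, was in EXPB2 alone, or 1.82% of members, and in 6.49% of all windows. The window of XTH9 held none of the 3 motifs, which says only that these letters are not in those 250 bases.

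Summed over the 33 XTH genes, the level was 5019 and 5255 CPM in wei8tar2_MS, 6388 and 5898 CPM in Col_Kyn and 4697 and 5728 CPM in Col_MS. The 22 expansins summed to 1399.9 and 1421 CPM in wei8tar2_MS, 1206 and 1392 CPM in Col_Kyn and 1108 and 1281 CPM in Col_MS. For both sums the wei8tar2_MS libraries lay close together. Those of the XTHs fell inside the range of Col_MS, and those of the expansins lay above both Col_MS libraries. A handful of genes carried each family: XTH4 gave 66.6% to 77.5% of the class I reads, and EXPA3 24.2% to 28.3% of the alpha-expansin reads.

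**Figure D1:**
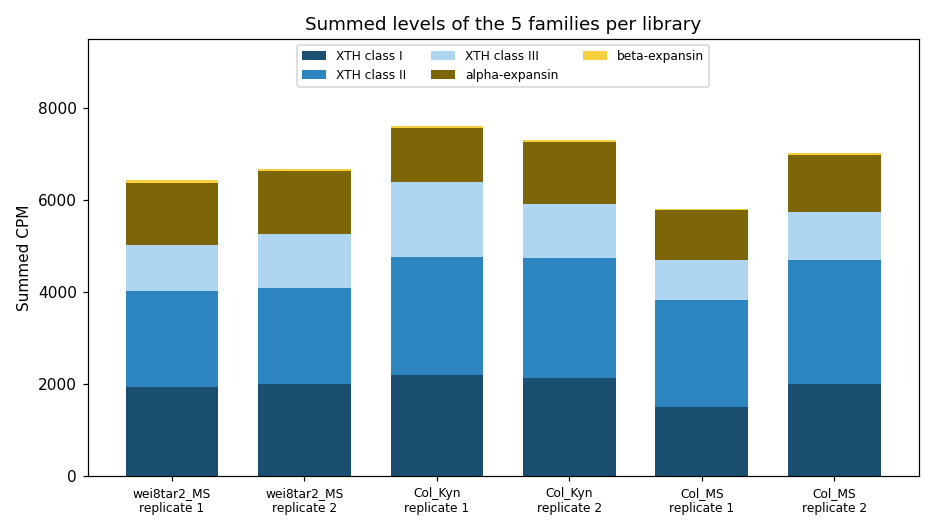
Bars show the summed CPM of the 5 families in each of the 6 libraries, stacked from XTH class I at the bottom to beta-expansins at the top. Class II was the tallest segment in each library (2091 to 2709 CPM), ahead of class I (1498 to 2196 CPM), and beta-expansins (32.1 to 45.2 CPM) are barely visible.

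Levels per length were compared by RPKM, which scales reads by the listed gene length and by the library total. XTH4 (AT2G06850) and XTH15 (AT4G14130) led the whole set. XTH4, a class I enzyme of expanding tissue, averaged 693 ± 5.31 RPKM in wei8tar2_MS, 731 ± 41.1 RPKM in Col_Kyn, 542 ± 106 RPKM in Col_MS (SD, n = 2 in each group here and below). XTH15, a class II gene that is induced by shade, averaged 558 ± 61.8 RPKM in wei8tar2_MS, 678 ± 128 RPKM in Col_Kyn, 699 ± 60.3 RPKM in Col_MS. XTH31 (AT3G44990), the leading class III gene and one of the hydrolase type, averaged 365 ± 79.3 RPKM in wei8tar2_MS, 504 ± 159 RPKM in Col_Kyn, 340.3 ± 39.2 RPKM in Col_MS. XTH17 (AT1G65310), also shade-induced, averaged 355 ± 19.7 RPKM in wei8tar2_MS, 476 ± 103 RPKM in Col_Kyn, 372 ± 119 RPKM in Col_MS. In each group these 4 genes stood above all expansins. Among the neighbours in this order, XTH4 and XTH15 differed by less than their spread in Col_Kyn, and XTH31 and XTH17 by less than their spread in all 3 groups.

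The highest alpha-expansin was EXPA3 (AT2G37640), which averaged 180.1 ± 0.00530 RPKM in wei8tar2_MS, 159 ± 13.8 RPKM in Col_Kyn, 137 ± 17.7 RPKM in Col_MS. EXPA11 (AT1G20190) averaged 160.5 ± 8.17 RPKM in wei8tar2_MS, 143 ± 10.6 RPKM in Col_Kyn, 145 ± 21.1 RPKM in Col_MS, and EXPA8 (AT2G40610) averaged 126 ± 1.11 RPKM in wei8tar2_MS, 97.8 ± 21.4 RPKM in Col_Kyn, 86.4 ± 0.139 RPKM in Col_MS. EXPB1 (AT2G20750) was the highest beta-expansin and averaged 20.1 ± 1.66 RPKM in wei8tar2_MS, 15.3 ± 2.74 RPKM in Col_Kyn, 14.4 ± 0.105 RPKM in Col_MS, followed by EXPB3 (AT4G28250) with 6.50 ± 0.588 RPKM in wei8tar2_MS, 6.24 ± 1.08 RPKM in Col_Kyn, 5.50 ± 0.435 RPKM in Col_MS. The beta-expansin family, which includes the pollen allergens of grasses, was thus low in these seedlings. The listed length that the authors divided by was longer than the RefSeq exons in 85.9% of the 19795 genes with introns, so that RPKM understates genes with long introns. With exon lengths, EXPA9 (AT5G02260) took the place of EXPA8 among the 3 highest alpha-expansins, and in the other families the 3 highest genes stayed in the same order.

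**Figure D2:**
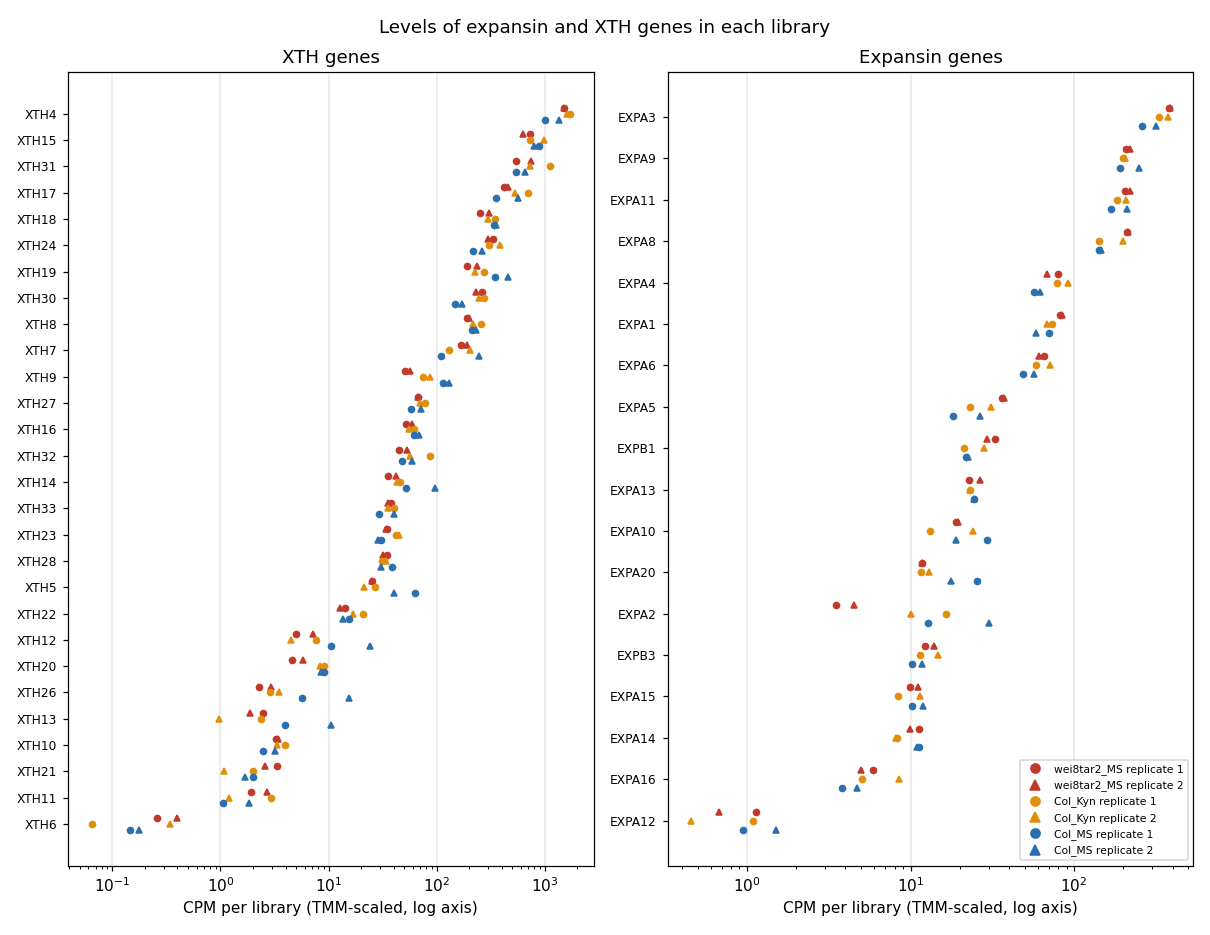
Each row is a gene and each point the TMM-scaled CPM of a library, on a log axis, with XTH genes on the left and expansins on the right, ordered by mean level. The 46 members with a read in all 6 libraries are drawn, and they run from XTH6 (0.0641 to 0.394 CPM) to XTH4 (998 to 1701 CPM).

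Not every member was active. EXPB2 (AT1G65680), EXPB4 (AT2G45110), EXPB5 (AT3G60570) and XTH1 (AT4G13080) were not read in any of the libraries. A count of 0 allows up to 3 reads, or 0.0943 to 0.165 CPM according to the library. XTH3 (AT3G25050) had single reads in both wei8tar2_MS libraries and 1 of the Col_MS libraries, and no read in Col_Kyn. XTH29 (AT4G18990) had 1 read in a wei8tar2_MS library, no read in Col_Kyn and 1 read in a Col_MS library. All of these levels are at or under the limit that a count of 0 allows, so no fold change is given. XTH2, XTH6 and XTH25 had reads at no more than 0.394 CPM. These 9 genes did not pass the filter on low counts and were not tested, and the 46 members tested are all 17 alpha-expansins, 2 beta-expansins, 7 class I, 14 class II and 6 class III XTHs.

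The comparison of wei8tar2_MS with Col_MS asks which wall genes differ when the TAA1 route is reduced by mutation. XTH9 had 51.0 and 57.3 CPM in wei8tar2_MS, 74.9 and 86.7 CPM in Col_Kyn and 114 and 129 CPM in Col_MS. The libraries of the 3 groups did not overlap, with wei8tar2_MS lowest and Col_MS highest. In wei8tar2_MS XTH9 fell by a log2 fold change of -1.17 ± 0.13 (standard error, SE) against Col_MS (edgeR adjusted p = 0.0209), a fold of 0.446. Leaving out either wei8tar2_MS library kept the size of the difference, at -1.08 without replicate 1 and -1.25 without replicate 2, but not the call, with edgeR adjusted p = 0.416 and 0.277. In every fit that leaves out a library, here and below, the group left with 1 library is assumed to vary like the other groups. In whole seedlings, fewer cells that express a gene and less RNA per cell cannot be told apart.

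XTH9 was the 1 member of 46 called in that comparison by edgeR, against 1.08% of the 21326 genes tested. limma-voom called the same single member, against 1.01% of genes, and DESeq2 called 13, against 5.93%. The 13 were EXPA5, EXPA8 and XTH30 on the higher side, and EXPA2, EXPA20, XTH5, XTH9, XTH12, XTH13, XTH14, XTH19, XTH20 and XTH26 on the lower side. At an unadjusted p under 0.05 in edgeR there were 19 members, or 41.3%, against 20.6% of all genes, 9 of them higher and 10 lower. The libraries did not overlap and were higher in wei8tar2_MS for 17 members, or 37.0%, against 26.6% of all genes, and lower for 14, or 30.4%, against 29.0%. Without Col_MS replicate 1 edgeR called 4 members, against 0.24% of all genes, and without Col_MS replicate 2 it called 9, against 7.90%.

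In wei8tar2_MS more expansins lay above than below Col_MS and more XTHs below than above, with no call among the expansins and no test of the difference between the families. Of the 19 expansins tested, 10 had both wei8tar2_MS libraries above both Col_MS libraries and 2 had both below, or 52.6% and 10.5%, beside 26.6% above and 29.0% below over all genes. Of the 27 XTHs tested, 7 lay above and 12 below, or 25.9% and 44.4%, so that the share above was near that of all genes. The share below was highest in class II, where 3 of 14 tested genes lay above (21.4%) and 9 below (64.3%). In class I 3 of 7 lay above and 3 below (42.9% each), and in class III 1 of 6 above (16.7%) and 0 below. The median log2 fold change was 0.25 over the expansins and -0.11 over the XTHs, beside -0.02 over all genes tested. By family it was 0.16 for alpha-expansins, 0.37 for the 2 beta-expansins, 0.02 for class I, -0.31 for class II and 0.07 for class III. The medians of alpha-expansins (0.03 to 0.27), the 2 beta-expansins (0.32 to 0.46) and class II (-0.37 to -0.29) kept their signs under all the alternatives run. Those of class I (-0.09 to 0.54) and class III (-0.06 to 0.26) did not, and the lowest alpha-expansin median was close to that of all genes.

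**Figure D3:**
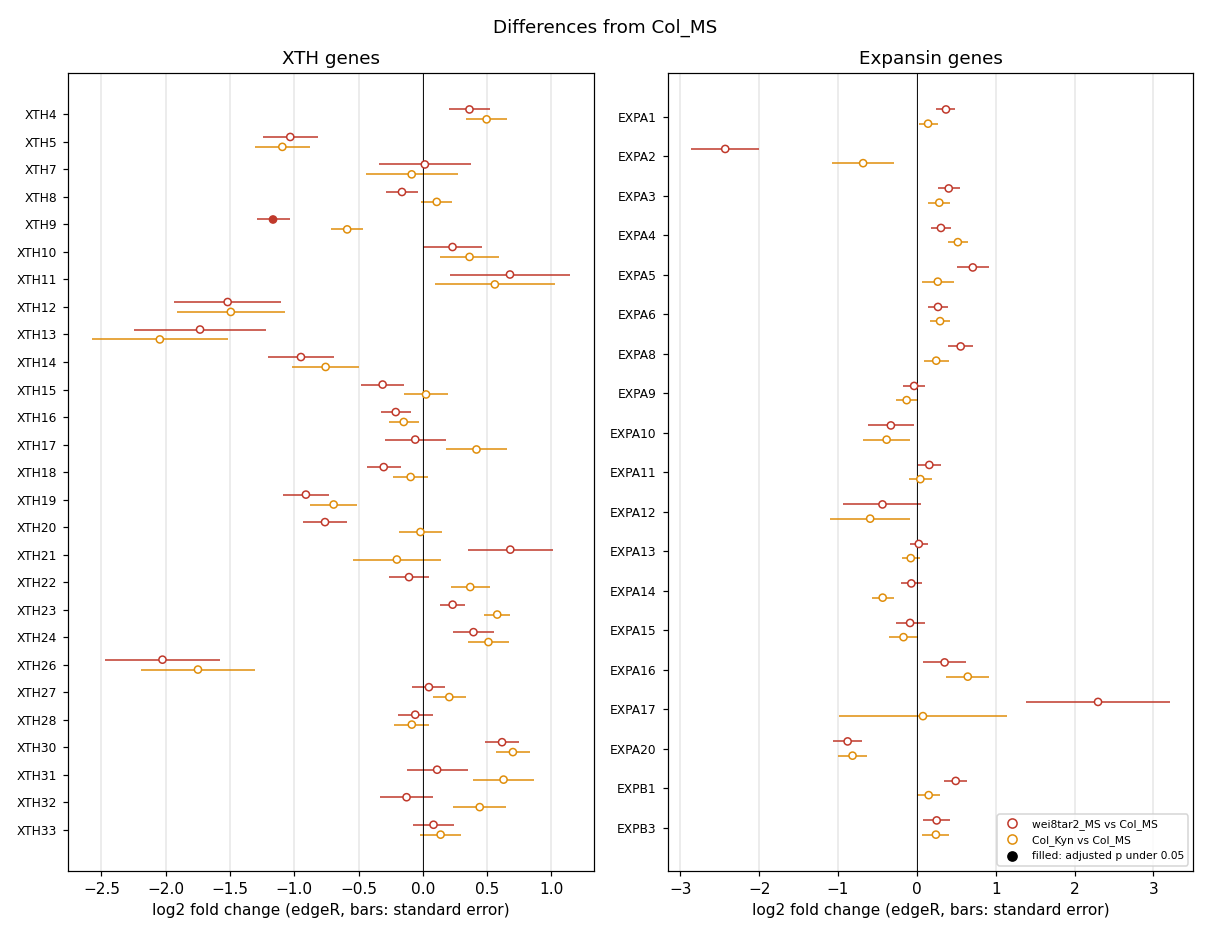
Points give the log2 fold change against Col_MS of the 46 tested members, with wei8tar2_MS (red) above Col_Kyn (orange) in each row, and bars give the standard error of the edgeR fit. The filled point, XTH9 in wei8tar2_MS at -1.17, is the only called difference, and the lowest points belong to EXPA2, XTH26, XTH13 and XTH12.

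Among the alpha-expansins EXPA2 (AT5G05290), known from germinating seeds, lay lowest relative to Col_MS. Its levels were 3.49 and 4.50 CPM in wei8tar2_MS, 16.4 and 10.1 CPM in Col_Kyn and 12.8 and 30.2 CPM in Col_MS. Both wei8tar2_MS libraries lay below all others, and the repeats of Col_MS were 2.37 times apart. EXPA2 had a log2 fold change of -2.43 ± 0.43 in wei8tar2_MS against Col_MS (edgeR adjusted p = 0.0519) and -1.75 ± 0.43 against Col_Kyn (edgeR adjusted p = 0.698). Without Col_MS replicate 2 the difference from Col_MS was -1.65, and without Col_MS replicate 1 it was -2.92. That difference was called in 5 of the 13 settings run, and not in the fits that left out a wei8tar2_MS library.

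EXPA17 (AT4G01630), which acts in lateral root emergence, was read at 2.13 and 2.44 CPM in wei8tar2_MS, at 0.385 and 0.629 CPM in Col_Kyn and at 0 and 0.913 CPM in Col_MS. Both wei8tar2_MS libraries lay above the others. EXPA17 differed from Col_MS by a log2 fold change of 2.30 ± 0.91 (edgeR adjusted p = 0.212), and 1.32 without the Col_MS library that had no read of it (edgeR adjusted p = 0.190). Set against that library alone it was called (edgeR adjusted p = 0.0109), with a fitted change that depends on the prior count. EXPA5 (AT3G29030), an expansin that promotes organ growth, had 36.1 and 37.1 CPM in wei8tar2_MS, 23.0 and 31.1 CPM in Col_Kyn and 18.2 and 26.6 CPM in Col_MS. Its log2 fold change was 0.71 ± 0.20 in wei8tar2_MS (edgeR adjusted p = 0.118). Leaving out Col_MS replicate 1 gave 0.46, and leaving out Col_MS replicate 2 gave 1.04 with a call (edgeR adjusted p = 0.0298).

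Among the abundant expansins, EXPA3 and EXPA8 lay higher in wei8tar2_MS by smaller amounts, and EXPA9 and EXPA11 overlapped Col_MS. EXPA3 had 383 and 383 CPM in wei8tar2_MS, 328 and 377 CPM in Col_Kyn and 260.2 and 319 CPM in Col_MS, a log2 fold change of 0.40 ± 0.14 in wei8tar2_MS (edgeR adjusted p = 0.164). EXPA8 had 210.0 and 213 CPM in wei8tar2_MS, 143 and 199 CPM in Col_Kyn and 143 and 145 CPM in Col_MS, a difference of 0.56 ± 0.16 (edgeR adjusted p = 0.117). For both genes the wei8tar2_MS libraries lay above all 4 others. EXPA11 had 203 and 219 CPM in wei8tar2_MS, 183 and 207 CPM in Col_Kyn and 168 and 210.4 CPM in Col_MS, and EXPA9 had 208 and 221 CPM in wei8tar2_MS, 198 and 204 CPM in Col_Kyn and 192 and 248 CPM in Col_MS, with a log2 fold change of -0.03 ± 0.14 in wei8tar2_MS (edgeR adjusted p = 0.920). The low beta-expansin EXPB1 had 33.0 and 29.4 CPM in wei8tar2_MS, 21.3 and 28.0 CPM in Col_Kyn and 21.8 and 22.5 CPM in Col_MS, with the wei8tar2_MS libraries highest and a difference of 0.49 ± 0.15 (edgeR adjusted p = 0.127). EXPB3 had 12.2 and 13.9 CPM in wei8tar2_MS, 11.3 and 14.8 CPM in Col_Kyn and 10.3 and 11.7 CPM in Col_MS, where wei8tar2_MS overlapped Col_Kyn and not Col_MS.

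EXPA20 (AT4G38210) went the other way, with 11.8 and 11.7 CPM in wei8tar2_MS, 11.7 and 12.9 CPM in Col_Kyn and 25.5 and 17.7 CPM in Col_MS. All 4 libraries of wei8tar2_MS and Col_Kyn lay below both Col_MS libraries. The log2 fold change was -0.88 ± 0.18 in wei8tar2_MS (edgeR adjusted p = 0.0698) and -0.82 ± 0.18 in Col_Kyn (edgeR adjusted p = 0.117), 2 comparisons that share the Col_MS libraries. The remaining alpha-expansins, namely EXPA1, EXPA6, EXPA9, EXPA10, EXPA12, EXPA13, EXPA14 and EXPA15, had log2 fold changes between -0.59 and 0.37 against Col_MS in both comparisons, with no call.

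Col_Kyn against Col_MS asks which wall genes differ when wild-type seedlings are grown with kynurenine, a known inhibitor of the same step. The inhibition itself is not measured in these data. No member was called by edgeR, against 0.366% of genes, or by limma-voom, against 0.234%, and DESeq2 called 10, against 3.40%. The 10 were EXPA4, XTH23 and XTH30 on the higher side, and EXPA20, XTH5, XTH9, XTH12, XTH13, XTH19 and XTH26 on the lower side. At an unadjusted p under 0.05 in edgeR there were 17 members, or 37.0%, against 17.0% of all genes, 8 of them higher and 9 lower. The libraries did not overlap and were higher in Col_Kyn for 11 members, or 23.9%, against 20.2% of all genes, and lower for 10, or 21.7%, against 23.4%. Without Col_MS replicate 1 edgeR called 2 members, against 0.194% of all genes, and without Col_MS replicate 2 it called 6, against 4.96%.

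By family the median log2 fold change in Col_Kyn was 0.04 for alpha-expansins, 0.20 for beta-expansins, 0.11 for class I, -0.12 for class II and 0.32 for class III, beside -0.02 over all genes tested. Under the alternatives run the class II (-0.21 to -0.04) and class III (0.11 to 0.51) medians kept their signs, and those of alpha-expansins (-0.07 to 0.09), beta-expansins (-0.0046 to 0.38) and class I (-0.12 to 0.41) did not. EXPA4 (AT2G39700) was the expansin with the lowest unadjusted p among those higher in Col_Kyn, with 79.6 and 67.9 CPM in wei8tar2_MS, 78.9 and 92.3 CPM in Col_Kyn and 57.0 and 62.3 CPM in Col_MS. Its log2 fold change was 0.52 ± 0.13 in Col_Kyn (edgeR adjusted p = 0.136). EXPA16 (AT3G55500) was read at 5.88 and 5.01 CPM in wei8tar2_MS, 5.06 and 8.47 CPM in Col_Kyn and 3.82 and 4.71 CPM in Col_MS. Its Col_Kyn libraries lay above both Col_MS libraries but far apart, and the log2 fold change was 0.65 ± 0.27 (edgeR adjusted p = 0.288).

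In class III, XTH30 (AT1G32170) had 261 and 233 CPM in wei8tar2_MS, 276 and 248 CPM in Col_Kyn and 149 and 173 CPM in Col_MS. All 4 libraries of wei8tar2_MS and Col_Kyn lay above both Col_MS libraries. The log2 fold change was 0.62 ± 0.13 in wei8tar2_MS (edgeR adjusted p = 0.0699) and 0.70 ± 0.13 in Col_Kyn (edgeR adjusted p = 0.0894). Without Col_MS replicate 2, in the fit with 1 Col_MS library that called 7.90% of all genes in wei8tar2_MS and 4.96% in Col_Kyn, both were called, at 0.76 (edgeR adjusted p = 0.0292) in wei8tar2_MS and 0.83 (edgeR adjusted p = 0.0292) in Col_Kyn. DESeq2 called both with all 6 libraries.

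The hydrolase-type genes XTH31 and XTH32, whose coding sequences were 67.2% identical, differed between the repeats of Col_Kyn. XTH31 had 547 and 747 CPM in wei8tar2_MS, 1124 and 727 CPM in Col_Kyn and 545 and 653 CPM in Col_MS, and XTH32 (AT2G36870) had 44.5 and 53.0 CPM in wei8tar2_MS, 87.2 and 57.2 CPM in Col_Kyn and 47.7 and 58.8 CPM in Col_MS. In both genes Col_Kyn replicate 1 was the highest library, and Col_Kyn replicate 2 was exceeded by a library of another group. The log2 fold change of XTH31 in Col_Kyn was 0.63 ± 0.24 (edgeR adjusted p = 0.248), and 0.28 without Col_Kyn replicate 1. XTH27 (AT2G01850) stood at 66.8 and 66.6 CPM in wei8tar2_MS, 78.5 and 70.3 CPM in Col_Kyn and 57.8 and 71.3 CPM in Col_MS with overlapping groups. XTH33, which codes for a membrane-anchored enzyme, and XTH28 had log2 fold changes between -0.09 and 0.14.

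In class I, XTH5 (AT5G13870) had 25.0 and 25.1 CPM in wei8tar2_MS, 26.8 and 21.1 CPM in Col_Kyn and 62.4 and 40.1 CPM in Col_MS. The 4 libraries of wei8tar2_MS and Col_Kyn lay below both Col_MS libraries. The log2 fold change was -1.03 ± 0.21 in wei8tar2_MS (edgeR adjusted p = 0.0696) and -1.09 ± 0.21 in Col_Kyn (edgeR adjusted p = 0.0951). In that same fit without Col_MS replicate 2 both were called, at -1.29 in wei8tar2_MS (edgeR adjusted p = 0.00960) and -1.36 in Col_Kyn (edgeR adjusted p = 0.00923). Without Col_MS replicate 1 the differences were -0.68 in wei8tar2_MS and -0.74 in Col_Kyn with no call.

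XTH4 lay on the other side, with 1495 and 1514 CPM in wei8tar2_MS, 1701 and 1599 CPM in Col_Kyn and 998 and 1342 CPM in Col_MS. All libraries of wei8tar2_MS and Col_Kyn were above both Col_MS libraries, and the log2 fold change was 0.36 ± 0.16 in wei8tar2_MS (edgeR adjusted p = 0.256) and 0.50 ± 0.16 in Col_Kyn (edgeR adjusted p = 0.205). XTH8 (AT1G11545) had 192 and 201 CPM in wei8tar2_MS, 255 and 219 CPM in Col_Kyn and 210.4 and 229 CPM in Col_MS. Its wei8tar2_MS libraries lay below the others by a small margin. XTH7 (AT4G37800) had 167 and 193 CPM in wei8tar2_MS, 131 and 204 CPM in Col_Kyn and 109.8 and 246 CPM in Col_MS, where the Col_MS libraries enclosed all others. XTH10 and XTH11 were read at 1.06 to 3.94 CPM, with log2 fold changes between 0.23 and 0.68 and no call.

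**Figure D4:**
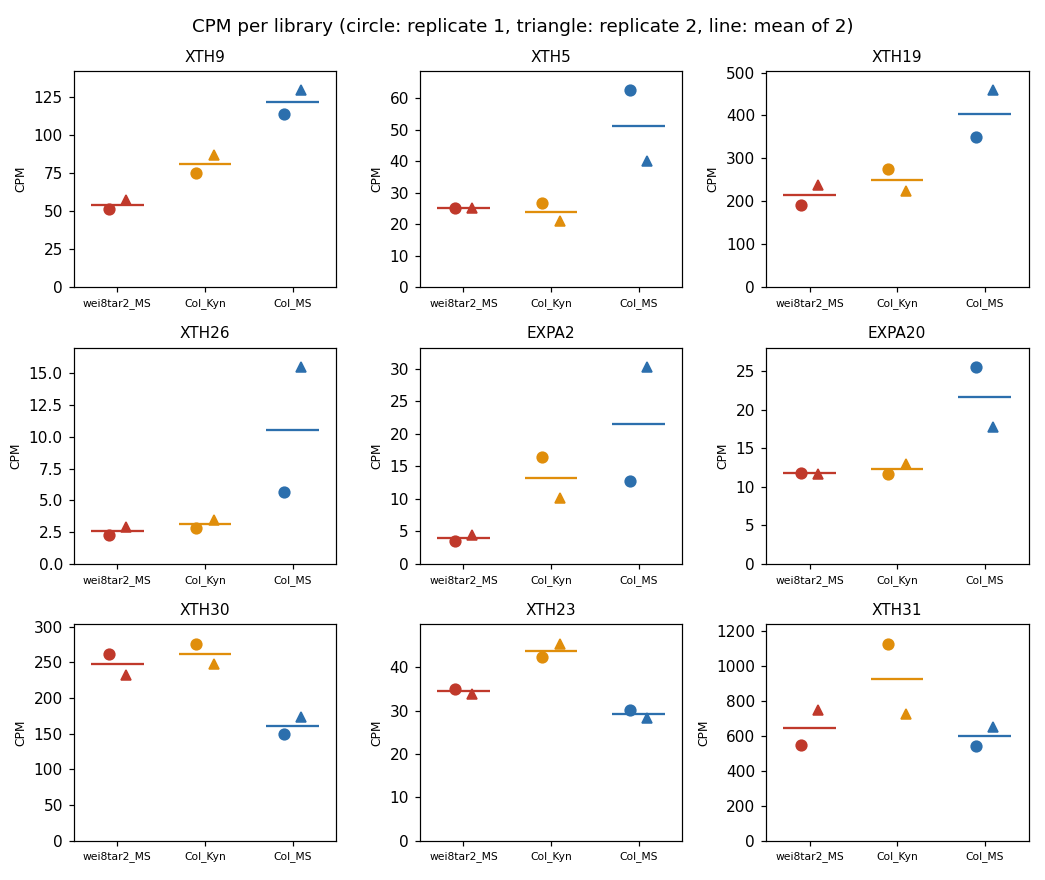
CPM per library for 9 members, with wei8tar2_MS, Col_Kyn and Col_MS from left to right, a circle for replicate 1, a triangle for replicate 2 and a line for their mean. XTH9 is lowest in wei8tar2_MS (51.0 and 57.3 CPM) and highest in Col_MS (114 and 129 CPM). XTH5, XTH19, XTH26 and EXPA20 also have all wei8tar2_MS and Col_Kyn libraries below both Col_MS libraries, and XTH30 and XTH23 have them above.

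Several of the class II XTHs are known from root tissue. XTH26 (AT4G28850), expressed in root hairs and the root differentiation zone, had 2.28 and 2.92 CPM in wei8tar2_MS, 2.85 and 3.49 CPM in Col_Kyn and 5.64 and 15.5 CPM in Col_MS. XTH12 (AT5G57530) had 4.96 and 7.22 CPM in wei8tar2_MS, 7.63 and 4.52 CPM in Col_Kyn and 10.5 and 24.3 CPM in Col_MS, and XTH13 (AT5G57540), its tandem copy, had 2.46 and 1.89 CPM in wei8tar2_MS, 2.37 and 0.973 CPM in Col_Kyn and 3.97 and 10.5 CPM in Col_MS. XTH14 (AT4G25820), whose enzyme has been studied in roots and root hairs, had 35.2 and 42.1 CPM in wei8tar2_MS, 45.5 and 42.8 CPM in Col_Kyn and 52.1 and 97.0 CPM in Col_MS. In these 4 genes all libraries of wei8tar2_MS and Col_Kyn lay below both Col_MS libraries, and Col_MS replicate 2 was 1.86 to 2.75 times Col_MS replicate 1.

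The log2 fold changes of XTH26 were -2.03 ± 0.45 in wei8tar2_MS (edgeR adjusted p = 0.0746) and -1.75 ± 0.45 in Col_Kyn (edgeR adjusted p = 0.138). Without Col_MS replicate 2 they were -1.09 in wei8tar2_MS and -0.83 in Col_Kyn. Without Col_MS replicate 1 they were -2.58 in wei8tar2_MS and -2.30 in Col_Kyn, and both were called (edgeR adjusted p = 0.0141 and 0.0272). XTH13 differed by -1.73 ± 0.52 in wei8tar2_MS and -2.05 ± 0.53 in Col_Kyn, and without Col_MS replicate 2 by -0.83 in wei8tar2_MS and -1.15 in Col_Kyn. XTH12 differed by -1.52 ± 0.42 in wei8tar2_MS and -1.49 ± 0.42 in Col_Kyn, and without Col_MS replicate 2 by -0.76 in wei8tar2_MS and -0.74 in Col_Kyn. XTH14 differed by -0.95 ± 0.26 in wei8tar2_MS and -0.76 ± 0.26 in Col_Kyn, and without that library by -0.40 in wei8tar2_MS and -0.22 in Col_Kyn.

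Root hair genes were likewise highest in Col_MS replicate 2. The 8 root hair markers summed to 128.0 and 138 CPM in wei8tar2_MS, 138 and 122 CPM in Col_Kyn and 168 and 255 CPM in Col_MS. All 8 had a negative log2 fold change in both comparisons with Col_MS, beside 53.2% of all genes in wei8tar2_MS and 52.9% in Col_Kyn. The medians were -0.63 in wei8tar2_MS and -0.88 in Col_Kyn, and none was called. Both libraries lay below both Col_MS libraries for 5 of the 8 in wei8tar2_MS (62.5%) and 7 in Col_Kyn (87.5%). Over all genes that share was 29.0% in wei8tar2_MS and 23.4% in Col_Kyn. The defining markers RHD6 and RSL4, transcription factors of root hair formation, were read in all libraries, RHD6 at 3.56 and 2.72 CPM in wei8tar2_MS, 3.30 and 2.40 CPM in Col_Kyn and 5.13 and 5.76 CPM in Col_MS and RSL4 at 2.06 and 1.34 CPM in wei8tar2_MS, 1.12 and 1.03 CPM in Col_Kyn and 1.64 and 3.62 CPM in Col_MS. The 7 markers of the root cap and stem cell niche summed to 56.5 and 55.8 CPM in wei8tar2_MS, 54.2 and 54.4 CPM in Col_Kyn and 63.6 and 52.5 CPM in Col_MS, of which SCR gave 88.0% to 96.5%. Their median log2 fold change against Col_MS was -0.88 in wei8tar2_MS and -1.83 in Col_Kyn, and none was called. WOX5 had both wei8tar2_MS libraries above both Col_MS libraries. In each comparison 5 of the 7, or 71.4%, had both libraries below both Col_MS libraries. The share below over all genes was 29.0% in wei8tar2_MS and 23.4% in Col_Kyn. Those 5, namely SMB, BRN1, BRN2, PLT1 and PLT2, were low, at no more than 2.47 CPM in any library. PLT1, a root stem cell factor among them, had 0.22 and 0.158 CPM in wei8tar2_MS, 0.160 and 0.114 CPM in Col_Kyn and 1.56 and 0.702 CPM in Col_MS, and SMB, a root cap factor, had 0.477 and 0.276 CPM in wei8tar2_MS, 0.545 and 0.400 CPM in Col_Kyn and 2.47 and 1.23 CPM in Col_MS. The part of root hair and root tip content in the values of XTH12, XTH13, XTH14 and XTH26 was not tested.

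**Figure D5:**
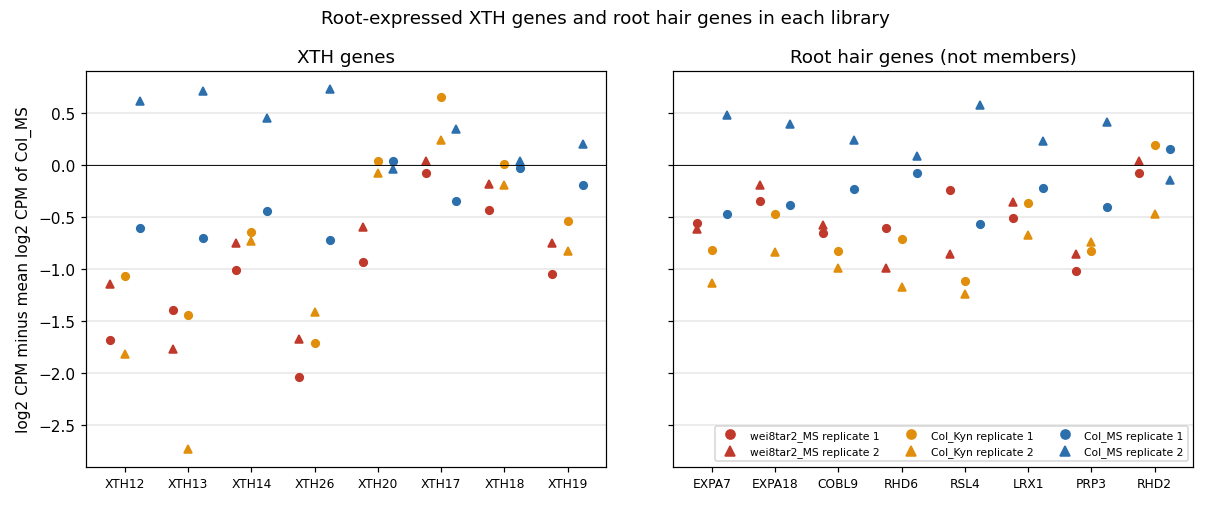
Points give the log2 CPM of each library minus the mean log2 CPM of the Col_MS libraries, for 8 class II XTH genes known from roots on the left and the 8 root hair markers on the right, with wei8tar2_MS, Col_Kyn and Col_MS from left to right within each gene. Col_MS replicate 2 is the highest library for XTH12, XTH13, XTH14 and XTH26 and for 7 of the 8 markers, all but RHD2.

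XTH17, XTH18 (AT4G30280), XTH19 (AT4G30290) and XTH20 (AT5G48070) are a group of related genes known from different zones of the root. XTH18 and XTH19 lie 1500 bases apart on chromosome 4 and their coding sequences were 89.2% identical, and XTH17 on chromosome 1 was 92.2% identical to XTH18. XTH19 had 192 and 238 CPM in wei8tar2_MS, 274 and 225 CPM in Col_Kyn and 349 and 458 CPM in Col_MS. Its wei8tar2_MS and Col_Kyn libraries all lay below Col_MS, with log2 fold changes of -0.91 ± 0.18 in wei8tar2_MS (edgeR adjusted p = 0.0674) and -0.69 ± 0.18 in Col_Kyn (edgeR adjusted p = 0.144). XTH18 had 254 and 302 CPM in wei8tar2_MS, 344 and 299 CPM in Col_Kyn and 336 and 351 CPM in Col_MS, a log2 fold change of -0.30 ± 0.13 in wei8tar2_MS (edgeR adjusted p = 0.251) and -0.09 ± 0.13 in Col_Kyn (edgeR adjusted p = 0.762). The windows before these neighbours, printed above, were 65.3% identical over 216 aligned bases, against 62.9% over 221 for XTH12 and XTH13. For XTH17 and XTH18, on different chromosomes, the windows were 73.7% identical over 228. Gaps were left out of these shares, and no unrelated windows were aligned beside them. The difference between the changes of XTH18 and XTH19 was not tested, and a read that fits both copies equally would not have been counted as unique.

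XTH17 had 424 and 459.5 CPM in wei8tar2_MS, 703 and 526 CPM in Col_Kyn and 352 and 568 CPM in Col_MS. Its wei8tar2_MS libraries lay inside the range of Col_MS, and the log2 fold change was -0.06 ± 0.24 in wei8tar2_MS and 0.42 ± 0.24 in Col_Kyn. XTH20 set wei8tar2_MS apart from both other groups, with 4.59 and 5.80 CPM in wei8tar2_MS, 9.04 and 8.30 CPM in Col_Kyn and 9.02 and 8.57 CPM in Col_MS. XTH20 had a log2 fold change of -0.76 ± 0.17 against Col_MS (edgeR adjusted p = 0.0751) and -0.74 ± 0.17 against Col_Kyn (edgeR adjusted p = 0.643), and -0.02 ± 0.17 in Col_Kyn against Col_MS. The first of these was called by DESeq2. XTH21 (AT2G18800), known from root growth, had 3.30 and 2.60 CPM in wei8tar2_MS, 2.02 and 1.09 CPM in Col_Kyn and 2.00 and 1.69 CPM in Col_MS, with wei8tar2_MS highest and a difference of 0.68 ± 0.33 from Col_MS (edgeR adjusted p = 0.291).

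XTH15, the most abundant class II gene, had 732 and 627 CPM in wei8tar2_MS, 737 and 981 CPM in Col_Kyn and 888 and 801 CPM in Col_MS. The wei8tar2_MS libraries lay below the others, at a log2 fold change of -0.31 ± 0.17 (edgeR adjusted p = 0.339). XTH23 (AT4G25810) had 35.0 and 33.9 CPM in wei8tar2_MS, 42.3 and 45.3 CPM in Col_Kyn and 30.2 and 28.4 CPM in Col_MS, the 3 groups being apart from each other with Col_Kyn highest. Its log2 fold change was 0.58 ± 0.10 in Col_Kyn (edgeR adjusted p = 0.0797) and 0.23 ± 0.10 in wei8tar2_MS (edgeR adjusted p = 0.245), and without Col_MS replicate 2 the difference in Col_Kyn was called (edgeR adjusted p = 0.0447). XTH14 and XTH23 lie 363 bases apart on chromosome 4, and their values ran to opposite sides of Col_MS. XTH24 (AT4G30270) had 334 and 297 CPM in wei8tar2_MS, 303 and 382 CPM in Col_Kyn and 217 and 263 CPM in Col_MS, above Col_MS in both groups. XTH16 and XTH22, the touch-induced gene TCH4, had log2 fold changes between -0.21 and 0.37 and no call.

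Set directly against each other, wei8tar2_MS and Col_Kyn gave no called member by edgeR, against 0.0281% of genes, or by limma-voom, against 0.0281%. DESeq2 called 1, EXPA2, against 0.233% of genes. At an unadjusted p under 0.05 in edgeR there were 9 members, or 19.6%, against 4.32% of all genes, 3 of them higher in wei8tar2_MS and 6 lower. The libraries did not overlap and were higher in wei8tar2_MS for 9 members, or 19.6%, against 16.8% of all genes, and lower for 12, or 26.1%, against 18.8%. Of the 19 expansins tested, 8 lay higher in wei8tar2_MS (42.1%) and 1 lower (5.26%). Of the 27 XTHs tested, 1 lay higher (3.70%) and 11 lower (40.7%), beside 16.8% higher and 18.8% lower over all genes. The difference between the families was not tested. XTH9 differed by -0.58 ± 0.13 between these groups (edgeR adjusted p = 0.633), beside -0.59 ± 0.13 in Col_Kyn against Col_MS (edgeR adjusted p = 0.108). XTH32 differed by -0.57 ± 0.21, XTH22 by -0.48 ± 0.15, XTH23 by -0.35 ± 0.10 and EXPA14 by 0.36 ± 0.14, all without a call.

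Related wall genes gave no call either. The 4 expansin-like genes EXLA1, EXLA2, EXLA3 and EXLB1 all had positive log2 fold changes, with medians of 0.36 in wei8tar2_MS and 0.48 in Col_Kyn. EXLA1 had 57.5 and 59.6 CPM in wei8tar2_MS, 62.9 and 49.8 CPM in Col_Kyn and 34.1 and 42.1 CPM in Col_MS, with all wei8tar2_MS and Col_Kyn libraries above Col_MS and edgeR adjusted p = 0.0832 in wei8tar2_MS and 0.147 in Col_Kyn. The 7 genes of xyloglucan synthesis, among them the glucan synthase CSLC4 and the xylosyltransferases XXT1, XXT2 and XXT5, had medians of -0.09 in wei8tar2_MS and -0.08 in Col_Kyn. The 3 genes that trim xyloglucan, XYL1, AXY8 and BGAL10, had medians of -0.19 in wei8tar2_MS and -0.09 in Col_Kyn. The 10 proton pump genes tested had medians of -0.05 in wei8tar2_MS and 0.03 in Col_Kyn. AHA2, the most abundant pump, had 2607 and 2659.5 CPM in wei8tar2_MS, 3213 and 2702 CPM in Col_Kyn and 2577 and 2584 CPM in Col_MS.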

How the data were processed

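Messenger RNA was sequenced in 6 libraries of etiolated seedlings, 2 each of wei8tar2_MS, Col_Kyn and Col_MS. TopHat 1.3.0 and the TAIR10 build are named for the alignment, per the submitters' processing notes. The deposited tables give raw counts of uniquely mapped reads per gene, the gene length and RPKM values, per the file headers. Counting program, strand setting and gene annotation were not given in the sources used here. No step in the labels' protocols marks strand, so antisense reads cannot be told apart. Genes not listed were taken as 0, and a count of 0 allows up to 3 reads. RPKM recomputed from count, length and library total equalled the deposited values, and RPKM is used here only to compare levels between genes.

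The model was edgeR 4.0.16 in R 4.3.3, with TMM factors (which also scale the CPM printed), filterByExpr by group, which kept 21326 genes, and quasi-likelihood tests. All 6 libraries entered, with a coefficient for each group and no replicate block. Calls are at a Benjamini-Hochberg adjusted p under 0.05 over all genes tested, and SEs were derived from the F statistic. The fit was tested on simulated data with the same spread in every group, which does not cover groups whose spreads differ. Alternatives were DESeq2 1.42.0, limma-voom of limma 3.58.1, DESeq2 size factors, no filter on low counts, a replicate block, only the groups compared, leaving out each library, and, added after seeing the data, exon lengths for RPKM. The labels call the libraries biological repeats without naming what separates them, so p-values measure the spread between these samples. That spread was estimated over the 3 groups together, although the repeats were not equally close. Of the 21326 genes, 255 were more than 2 times apart between the repeats of wei8tar2_MS, 986 in Col_Kyn and 1090 in Col_MS. The limit for a count of 0 covers counting error alone, as PCR duplicates could not be recognised.

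Members were matched by locus, and windows of 250 bases before the annotated start were read from the RefSeq TAIR10.1 genome, an update of the build in the notes, with Python 3.11.15. Coding identity was aligned with Biopython 1.88. The deposited tables hold no coordinates. The members, the related gene lists and the markers were chosen with earlier results of these data known. Named with values were members called, the 3 highest per family by mean RPKM, the 3 largest changes each way among those with a mean of at least 1 CPM and groups that do not overlap in each comparison with Col_MS, and members at 0 in a group. Other members named with values, and the genes in the plots, were chosen after their values were seen.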

Additional observations from a re-analysis of the deposited data

How the results depend on the processing

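The number of called members depended on the tool and on single libraries. For wei8tar2_MS against Col_MS edgeR called 1 member (1.08% of all genes), DESeq2 called 13 (5.93%), edgeR with no filter on low counts called 11 (4.25%), and edgeR with a replicate block called 4 (1.72%), namely EXPA2, XTH5, XTH9 and XTH26. Leaving out each library in turn gave 0 to 9, while 0.0183% to 7.90% of all genes were called, with 0 called without either wei8tar2_MS library. For Col_Kyn against Col_MS edgeR called 0 (0.366% of all genes), DESeq2 10 (3.40%), edgeR with no filter 7 (1.56%) and edgeR with a replicate block 1, XTH5 (0.610%), and leaving out each library gave 0 to 6, while 0.00% to 4.96% of all genes were called. The highest counts came without Col_MS replicate 2, where Col_MS has 1 library and is assumed to vary like the other groups. For wei8tar2_MS against Col_Kyn DESeq2 called 1 and every other setting run called 0. The cause of these differences was not tested. XTH9 was called in wei8tar2_MS against Col_MS in 11 of 13 settings.

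Equal replicate numbers were not taken as pairs, since their deviations from the group means correlated at 0.225, 0.0359 and -0.0699.

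Leaving out 1 library turned the sign of some log2 fold changes, among them that of EXPA2 in Col_Kyn, at -0.68 with all 6 libraries. In Col_Kyn against Col_MS, EXPA17 ranged over -0.91 to 6.65, EXPA2 over -1.17 to 0.091, XTH20 over -0.084 to 0.039 and XTH21 over -0.76 to 0.13. In wei8tar2_MS against Col_MS, XTH31 ranged over -0.13 to 0.32, and EXPA17, with no change of sign, over 1.32 to 8.89. The upper values for EXPA17 are against a Col_MS library with no read of it and depend on the prior count.

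Repeats were more than 2 times apart for 3 members in Col_Kyn and 5 in Col_MS. The 5 leave out EXPA17, which had no read in a Col_MS library and so no ratio. With 2 libraries per group and few residual degrees of freedom, differences in genes such as XTH12, XTH13 and XTH26 rest on few values. Members under 3 reads per library cannot be compared at this depth. Whole seedlings were sampled, so organ proportions and levels per cell cannot be told apart.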
